A study of Mus musculus with 6 samples.

Results

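Sympathetic neurons supply the wall of the aorta, and 9 genes that such neurons use were followed here in aortas of mice with and without eNOS, the nitric oxide synthase of endothelium (gene Nos3). The 9 genes were Th, Dbh, Npy, Slc6a2, Phox2a, Uchl1, Prph, Stmn2 and Chga. A gene was measured where a probe set of the array was annotated with that gene symbol alone, and the brightest such probe set was used, which gave values for 8 of the 9 genes among 22180 genes in all. Phox2a, a transcription factor of noradrenergic neurons, shares its annotated probe set with another gene and therefore has no value. All 8 measured genes passed the filter on dim genes (a mean of at least 4.38 log2 over the 6 arrays) and were tested among 18007 genes.

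Aorta of 3 eNOS-deficient samples (11, 15 and 19) was set against aorta of 3 age-matched wild-type samples (2, 3 and 5), each on 1 Affymetrix array and called here by its title number. The labels give genotype and tissue for each sample and no treatment. The sources used here do not give strain, sex, age, the targeted allele or whether a sample is 1 animal, so p-values measure the spread between these samples, which may be technical. Values are log2 signals after the authors' RMA, so a difference of 1 is a 2-fold difference in signal.

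Noradrenergic neurons make noradrenaline from tyrosine. Tyrosine hydroxylase (Th) performs the rate-limiting step, Ddc the decarboxylation to dopamine, and dopamine beta-hydroxylase (Dbh) the last step inside vesicles. The transporter Slc6a2 takes released noradrenaline back into the nerve ending, and neuropeptide Y (Npy) is released with it as a vasoconstrictor. The cell bodies lie in ganglia of the sympathetic chain and in prevertebral ganglia close to the aorta, and their axons end between adventitia and media of the vessel.

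Measured on its brightest probe set, no sympathetic neuron gene differed between the genotypes beyond the spread between arrays. None of the 8 passed an adjusted p under 0.05 in limma with Benjamini-Hochberg adjustment over 18007 genes, where 5 genes or 0.0278% of all tested did (0.0111% higher and 0.0167% lower). Without adjustment, at p under 0.05, the count was also 0 of 8, against 11.6% of all genes, and the arrays of the 2 genotypes overlapped for all 8, whereas they did not overlap for 19.5% of all genes. A dimmer probe set of Uchl1, which is not in these counts and is given below, did not overlap. The eNOS-deficient arrays spread widely for these genes. All 8 were highest of the 6 arrays on eNOS-deficient 19 and lowest on eNOS-deficient 15, an order found in 2.0% of all genes tested (19.3% were highest on eNOS-deficient 19 and 10.4% lowest on eNOS-deficient 15). The genes were chosen with earlier results of these data known, so these shares are a description and not a test. In bulk tissue, a different number of neurons and a different amount of RNA per neuron cannot be told apart.

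**Figure D1:**
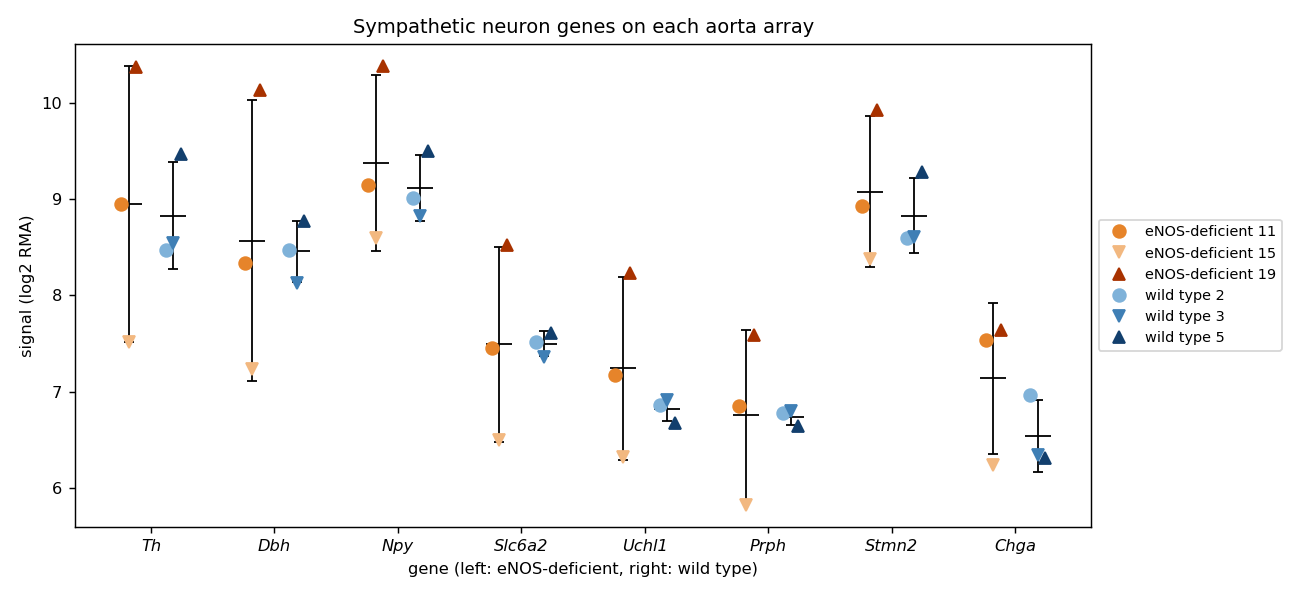
Signal (log2 RMA) of the 8 measured sympathetic neuron genes on each array, with eNOS-deficient samples to the left of wild type for each gene; symbols are single arrays, the bar is the group mean and the whiskers are 1 SD (n = 3). For every gene the wild-type arrays lie between eNOS-deficient 15 and eNOS-deficient 19.

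Among the enzymes of noradrenaline synthesis, Th had 8.95, 7.51 and 10.37 log2 on eNOS-deficient 11, 15 and 19, against 8.47, 8.54 and 9.46 on wild type 2, 3 and 5. The wild-type arrays all lay inside the range of the eNOS-deficient arrays. The group means were 8.94 ± 1.43 in eNOS-deficient samples against 8.82 ± 0.56 in wild-type samples (SD, n = 3 each), a difference of 0.12 log2 with a 95% interval of -1.44 to 1.68 (limma adjusted p = 0.965). Expressed as a ratio, that interval runs from 0.369-fold to 3.21-fold.

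Dbh gave 8.34, 7.24 and 10.13 log2 on eNOS-deficient 11, 15 and 19, against 8.47, 8.13 and 8.77 on wild type 2, 3 and 5. Here too the wild-type arrays fell between the outer eNOS-deficient arrays, and eNOS-deficient 11 lay within the wild-type range. The means were 8.57 ± 1.46 in eNOS-deficient samples against 8.45 ± 0.32 in wild-type samples (SD, n = 3 each), and the difference of 0.11 had an interval of -1.41 to 1.63 (limma adjusted p = 0.965). Between eNOS-deficient 19 and eNOS-deficient 15, the signals of Th and Dbh differed by 7.28-fold and 7.44-fold.

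Upstream sequences of Th, Dbh and Chga are shown to compare promoters of members. All 8 measured members shared their highest and lowest arrays, so that order does not single out the genes shown. The stretch of 250 bases before each annotated start was read from RefSeq (GRCm38.p6), written 5′ to 3′ on the gene's strand. Capitals mark TGACGTNA, the cyclic AMP response element with 1 free base, and ATTA, the core bound by homeodomain factors such as the PHOX2 proteins, on either strand. The regions are chr7:142899996-142900245 on the minus strand, chr2:27165257-27165506 on the plus strand and chr12:102554691-102554940 on the plus strand.
Th: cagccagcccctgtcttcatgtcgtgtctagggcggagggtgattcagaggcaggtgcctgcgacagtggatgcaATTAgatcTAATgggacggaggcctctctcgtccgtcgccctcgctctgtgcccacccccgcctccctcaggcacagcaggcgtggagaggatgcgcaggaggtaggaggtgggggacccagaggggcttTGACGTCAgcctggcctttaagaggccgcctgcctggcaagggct
Dbh: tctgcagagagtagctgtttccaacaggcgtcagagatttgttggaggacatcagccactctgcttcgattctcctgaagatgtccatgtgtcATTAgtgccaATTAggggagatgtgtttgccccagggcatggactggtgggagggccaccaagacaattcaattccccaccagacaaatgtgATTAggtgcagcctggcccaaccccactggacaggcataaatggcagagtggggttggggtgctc
Chga: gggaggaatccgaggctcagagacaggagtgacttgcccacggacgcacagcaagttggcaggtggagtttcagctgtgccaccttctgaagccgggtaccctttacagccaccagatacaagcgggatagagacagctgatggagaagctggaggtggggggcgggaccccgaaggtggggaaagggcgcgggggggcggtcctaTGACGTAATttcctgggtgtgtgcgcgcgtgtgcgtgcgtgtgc
Th holds the full element TGACGTCA at -45 to -38 from the start, and Chga holds TGACGTAA at -44 to -37, where the last bases overlap an ATTA match on the opposite strand. Dbh has 3 ATTA matches and no TGACGTNA. Promoter entries existed for 7 of the 9 genes. Of these, 2 held TGACGTNA (Th and Chga, both shown), against 2.52% of 32851 promoters searched over the same length. The full TGACGTCA was in 1 of 7, against 1.55%. ATTA was in 4, against 54.9%, and GGGCGG, the GC box, which was also searched, in 5, against 32.7%. Npy, which has the same order of arrays, held neither TGACGTNA nor ATTA. A match describes these letters only.

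Npy stood at 9.15, 8.60 and 10.38 log2 on eNOS-deficient 11, 15 and 19, against 9.01, 8.83 and 9.50 on wild type 2, 3 and 5. Its difference was 0.26 (interval -0.75 to 1.27, limma adjusted p = 0.862), with overlapping groups. Slc6a2, the noradrenaline uptake transporter, measured 7.45, 6.50 and 8.52 on eNOS-deficient 11, 15 and 19, against 7.52, 7.36 and 7.61 on wild type 2, 3 and 5. For Slc6a2 the wild-type arrays were close together, the SD being 1.01 in eNOS-deficient against 0.13 in wild-type aorta, with means of 7.49 in eNOS-deficient and 7.50 in wild-type samples. The difference was -0.01 with an interval of -1.06 to 1.05 (limma adjusted p = 0.998).

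The remaining 4 genes mark nerve cells more widely. Stmn2, a regulator of microtubules in growing axons, had 8.93, 8.37 and 9.92 log2 on eNOS-deficient 11, 15 and 19, against 8.60, 8.61 and 9.28 on wild type 2, 3 and 5. Prph, the intermediate filament peripherin of peripheral neurons, had 6.85, 5.82 and 7.58 in those eNOS-deficient samples, against 6.78, 6.80 and 6.64 in wild type. Their differences were 0.25 (interval -0.66 to 1.16) and 0.01 (-0.91 to 0.94), with limma adjusted p of 0.853 and 0.995.

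Uchl1, the neuronal ubiquitin hydrolase PGP9.5 used to stain perivascular nerves, gave 7.17, 6.32 and 8.23 log2 on eNOS-deficient 11, 15 and 19, against 6.86, 6.92 and 6.68 on wild type 2, 3 and 5 (difference 0.42, interval -0.58 to 1.42, limma adjusted p = 0.748). It was the only member with a second single-symbol probe set, which was dimmer and did not follow the first. That probe set read 5.10, 4.93 and 5.11 on eNOS-deficient 11, 15 and 19, against 5.35, 5.39 and 5.41 on wild type 2, 3 and 5, lower on every eNOS-deficient array, with a difference of -0.34. Its groups did not overlap, which was the case for 19.5% of all genes tested on their brightest probe sets. It was not tested on its own. With the mean of both probe sets the difference of Uchl1 was 0.04.

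Chga, the vesicle protein chromogranin A of neuroendocrine cells, was high on a second eNOS-deficient array. It had 7.54, 6.24 and 7.63 log2 on eNOS-deficient 11, 15 and 19, against 6.96, 6.34 and 6.31 on wild type 2, 3 and 5. On eNOS-deficient 11 it stood 1.00 above the wild-type mean, while the other 7 members lay between -0.12 and 0.35 from theirs on that array. Its difference of 0.60 (interval -0.30 to 1.502) did not pass (limma adjusted p = 0.586). With arrays centred on their medians, wild type 5 at 6.23 fell just below eNOS-deficient 15 at 6.26 for Chga, so 7 of 8 genes then kept both extremes on the eNOS-deficient arrays.

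**Figure D2:**
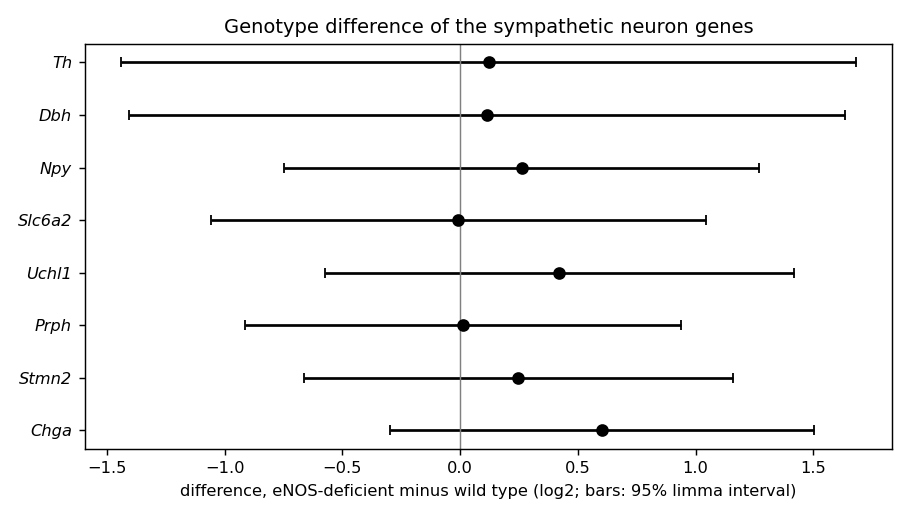
Difference between genotypes (eNOS-deficient minus wild type, log2, horizontal axis) of each measured sympathetic neuron gene, with the 95% interval from limma as bars. All 8 intervals cross 0, and the widest are those of Th and Dbh.

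Averaged over the 8 genes, the arrays stood at 8.05, 7.07 and 9.10 log2 on eNOS-deficient 11, 15 and 19, against 7.83, 7.69 and 8.03 on wild type 2, 3 and 5. The set mean was 8.07 ± 1.01 in eNOS-deficient samples against 7.85 ± 0.17 in wild-type samples (SD, n = 3 each), a difference of 0.22. No p is given for it because the genes were chosen with earlier results of these data known. The median difference of the 8 genes was 0.18, against 0.04 over all 18007 genes tested, and 7 of 8 differences were positive, against 56.6% of all genes (8 of 8 and 67.8% with arrays centred on their medians). The sign of that difference changed with single arrays. Without eNOS-deficient 15 the difference was 0.72, and without eNOS-deficient 19 it was -0.29, while with array weights it was -0.19. None of the 8 genes passed in either case or in any other alternative tried, where the lowest limma adjusted p of any of them was 0.4955.

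The spread within genotypes was itself unequal. The SD over the eNOS-deficient arrays exceeded that over the wild-type arrays for all 8 genes, by 2.02-fold for Stmn2 up to 9.98-fold for Prph. Over all genes tested the median SD was smaller in eNOS-deficient than in wild-type aorta, 0.15 against 0.19 log2. Each of the 8 genes had an eNOS-deficient SD above that of at least 97.6% of all genes. For the wild-type SD, Th stood above 95.02% of genes but Prph above only 15.5%. With 3 arrays per genotype these SDs are imprecise and were not tested against each other.

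Within wild type the members differed in their order. For 5 of 8 (Th, Dbh, Npy, Slc6a2 and Stmn2) wild type 5 was the highest of the 3 wild-type arrays, by 1.00 over wild type 2 for Th and 0.68 for Stmn2 but by only 0.09 for Slc6a2. For the other 3 (Uchl1, Prph and Chga) wild type 5 was the lowest, although for Prph it lay only 0.14 below wild type 2, and for Chga only 0.03 below wild type 3.

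The contrast between eNOS-deficient 19 and eNOS-deficient 15 was chosen after the values were seen and compares 2 single samples, so it is given as a description without a test. It was 2.90 log2 for Dbh, 2.86 for Th, 2.02 for Slc6a2, 1.91 for Uchl1, 1.78 for Npy, 1.76 for Prph, 1.55 for Stmn2 and 1.40 for Chga. The median over all genes tested was -0.00070, while Chga, the lowest member, lay above 99.57% of genes. In all, 78 of 18007 genes had a contrast at least as large as that of Chga. Of these 78, 8 were the members, 7 came from a list of other noradrenergic genes, 6 from a list of genes of any neuron, 3 were Y-linked, 1 was Maoa and 53 were in none of the 19 other lists. Those 53 included genes of the lung list given below, which was written after the values were seen. Among them Sftpc had the largest contrast of all genes tested (5.17), and Cxcl15 had 2.97. Pcbd1, Rab3b, Syt4 and Syt5, named below for their profiles, were also among the 53. Relative to the wild-type mean, the set lay 1.25 higher on eNOS-deficient 19, 0.78 lower on eNOS-deficient 15 (a value of -0.78) and 0.20 higher on eNOS-deficient 11. The contrast of the set mean stayed between 1.92 and 2.02 under the other ways of scaling the arrays or combining probe sets.

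**Figure D3:**
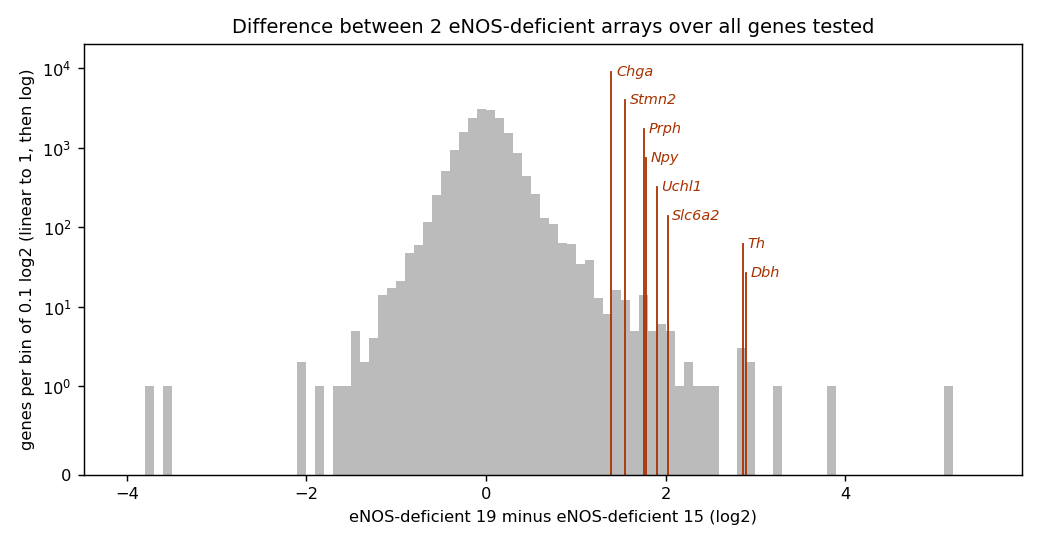
Histogram of the difference between eNOS-deficient 19 and eNOS-deficient 15 (log2, horizontal axis) over the 18007 genes tested (genes per bin, vertical axis linear to 1 and logarithmic above), with the 8 sympathetic neuron genes marked by lines whose height carries no meaning. The members lie between 1.40 and 2.90, in the right tail.

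Other genes of the noradrenergic neuron formed a list of 20, of which 17 were measured. Like the members, this list and the others below were chosen with earlier results of these data known. None of the 17 passed in limma (0 higher, 0 lower, lowest adjusted p = 0.796, and 0 at an unadjusted p under 0.05), and their median difference was 0.11. Of the 17, 13 were highest on eNOS-deficient 19, 12 lowest on eNOS-deficient 15 and 10 both, against 2.0% of all genes for both. Ddc, the decarboxylase between Th and Dbh, had 6.27, 5.79 and 7.49 log2 on eNOS-deficient 11, 15 and 19, against 6.20, 6.39 and 6.55 on wild type 2, 3 and 5. Slc18a2, which loads noradrenaline into vesicles, gave 7.86, 7.12 and 9.50 in eNOS-deficient samples, against 7.70, 7.80 and 8.66 in wild type. Hand2, a transcription factor of sympathetic neurons, gave 6.13, 5.72 and 6.69 in eNOS-deficient samples, against 6.08, 6.33 and 5.88 in wild type. Not every factor of the lineage followed: Gata3 read 5.77, 6.16 and 6.21 on eNOS-deficient 11, 15 and 19, against 6.27, 6.07 and 5.999 on wild type 2, 3 and 5, a gene named after its values were seen.

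Genes shared by neurons of all kinds gave 0 of 22 past in limma (median difference 0.10, lowest adjusted p = 0.3665), and at an unadjusted p under 0.05 there was 1 gene each way, so 2 of 22 against 11.6% of all genes. Here 18 of 22 were highest on eNOS-deficient 19 and 11 of 22 combined this with a minimum on eNOS-deficient 15. Snap25, a protein of vesicle fusion, had 9.51, 8.19 and 10.39 log2 on eNOS-deficient 11, 15 and 19, against 8.73, 8.77 and 9.85 on wild type 2, 3 and 5. Tubb3, the neuronal beta-tubulin, had a difference of 0.19, and Elavl4, a neuronal RNA-binding protein, one of 0.09.

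Genes with the nearest profile over the 6 arrays were then listed for Th, Dbh, Npy and the mean of the set. Nearness was the root mean square difference between profiles centred on their own means, over 6 arrays, as a description. Nearest to Th among non-members were Nefl (0.17 log2), the light neurofilament chain, Slc18a2 (0.21) and Snap25 (0.22). For Dbh they were Nefl (0.17), Slc18a2 (0.25) and Chrna3 (0.28), a subunit of the nicotinic receptor through which sympathetic ganglia are excited. For Npy they were Pcbd1 (0.11), which helps to recycle the tetrahydrobiopterin that tyrosine hydroxylase and nitric oxide synthases need, Chgb (0.12), another granin, and Rab3b (0.12), a GTPase of secretory vesicles. For the mean of the 8 genes they were Syt4 (0.11), Chrnb4 (0.11) and Syt5 (0.12), which are 2 synaptotagmins and a ganglionic nicotinic receptor subunit. Among the members themselves, Dbh lay 0.23 from Th, while Chga lay farthest from it, at 0.71. Nearness was not particular to genes of neurons: the lung surfactant gene Sftpb, named after its values were seen, had rank 7 for Npy (0.15). Of the other members only Stmn2 (0.10) lay nearer to Npy, with Slc6a2 next at 0.22.

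Lists for other cells of nerves were read in the same way. Genes of Schwann cells, which ensheath the same nerves, had 0 of 14 past (median 0.0028), with 1 of 14 highest on eNOS-deficient 19 and lowest on 15, and a list mean of 6.77, 6.64 and 6.89 log2 on eNOS-deficient 11, 15 and 19, against 6.78, 6.66 and 6.75 on wild type 2, 3 and 5. The myelin gene Mbp, the glial factor Sox10 and S100b differed by 0.14, -0.09 and -0.09. Sensory neuron genes had 0 of 7 past (median 0.05) and 3 of 7 in that order, with Calcb at 0.05 and Trpv1, the capsaicin receptor, at -0.02, while Tac1 was under the dim filter. Cholinergic neuron genes had 0 of 5 past (median -0.0050) and 1 of 5 in that order, with Chat, which makes acetylcholine, at -0.0050 and Slc18a3, its vesicular transporter, at -0.18.

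Chromaffin cells of the adrenal medulla also express Th, Dbh and Chga. Of 5 chromaffin genes 0 passed (median 0.20), 4 of 5 were highest on eNOS-deficient 19 and 1 of 5 was also lowest on eNOS-deficient 15. Relative to the wild-type mean the list lay 0.12 higher on eNOS-deficient 11, at -0.03 on eNOS-deficient 15 and 1.04 higher on eNOS-deficient 19, and the part of such cells in the values of the members was not tested. The list shares Chgb and Scg2 with the noradrenergic list. The exception was Pnmt, which turns noradrenaline into adrenaline and defines adrenaline-making chromaffin cells. It read 4.85, 5.04 and 4.81 log2 on eNOS-deficient 11, 15 and 19, against 4.90, 4.90 and 4.88 on wild type 2, 3 and 5. Slc18a1, the vesicular transporter of chromaffin cells, read 4.95, 5.21 and 6.42 in eNOS-deficient samples, against 5.06, 4.89 and 6.03 in wild type. Penk, the enkephalin precursor, named after its values were seen, differed by 1.12 (limma adjusted p = 0.256) without overlap of the groups. Adrenal cortex genes had 0 of 4 past and 3 of 7 under the dim filter, with a list mean between 5.13 and 5.24 on the eNOS-deficient arrays and between 4.995 and 5.18 on the wild-type arrays. For cells of the arterial chemoreceptor bodies 2 of 5 genes were measured and 0 passed, with Cox4i2 at -0.09 and Kcnk9 at -0.12.

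On the receiving side, 8 of 17 genes for receptors, uptake and breakdown of noradrenaline and NPY were measured, 7 were tested and 0 passed (median 0.07), while at an unadjusted p under 0.05 the counts were 2 higher and 0 lower of 7, against 11.6% of all genes in either direction. The alpha-adrenergic receptor Adra1b differed by 0.06 and Adra2c by -0.33. Npy1r, the vascular receptor for neuropeptide Y, had 6.70, 6.91 and 7.81 log2 on eNOS-deficient 11, 15 and 19, against 6.20, 6.66 and 5.99 on wild type 2, 3 and 5. Its groups did not overlap, yet the difference of 0.86 (standard error 0.31) did not pass (limma adjusted p = 0.376). The monoamine oxidase Maob, named after its values were seen, likewise did not overlap (difference 0.44, adjusted p = 0.386), which was the case for 19.5% of all genes. Its sister enzyme Maoa, which sympathetic neurons carry, was also named after its values were seen and followed the array order of the members with 7.79, 7.38 and 8.87 in eNOS-deficient samples, against 7.61, 7.79 and 8.27 in wild type.

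Neurotrophic and axon guidance genes, through which a target tissue attracts or repels sympathetic axons, had 0 of 11 past (median -0.07), with Bdnf at -0.14, Gdnf at -0.14 and Artn at -0.06. Of the 11, 2 had groups without overlap, a share near the 19.5% of all genes, and both were chosen here after their values were seen. Slit3, a secreted guidance cue, had 9.25, 9.14 and 9.46 log2 on eNOS-deficient 11, 15 and 19, against 8.70, 8.68 and 8.24 on wild type 2, 3 and 5 (difference 0.74, limma adjusted p = 0.240), and its relative Slit2 differed by 0.34 (adjusted p = 0.4004). Only 1 of the 11 had the array order of the neuron genes.

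**Figure D4:**
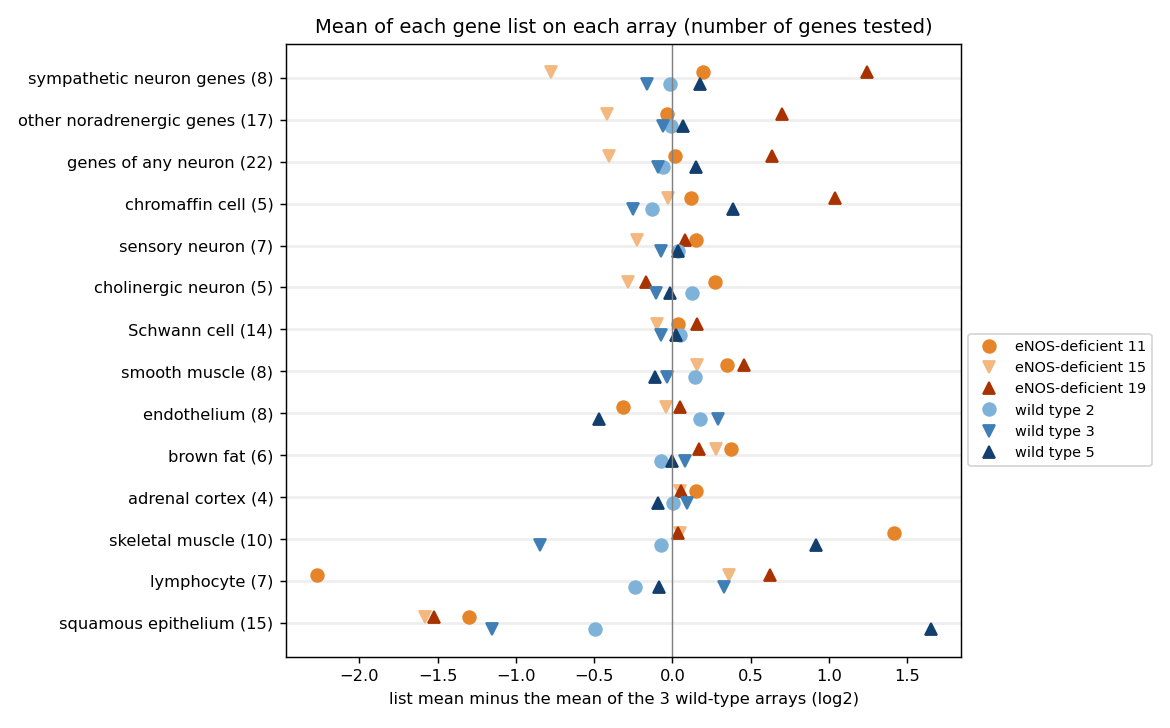
Mean of each gene list on each array relative to the mean of the 3 wild-type arrays (log2, horizontal axis), with the number of genes tested in brackets and eNOS-deficient arrays drawn above wild-type arrays in each line. The sympathetic, noradrenergic and general neuron lists spread out over eNOS-deficient 15 and 19, whereas skeletal muscle and lymphocyte lists stand out on eNOS-deficient 11 and squamous epithelium on wild type 5.

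The arrays also differed in other tissues, and the part of these in the values above was not tested. Lung epithelium genes, a list written after the values were seen, were highest on the same array as the neuron genes: their mean over 11 genes was 4.89, 4.83 and 6.16 log2 on eNOS-deficient 11, 15 and 19, against 5.62, 5.13 and 5.37 on wild type 2, 3 and 5. Of 10 tested, 6 were highest on eNOS-deficient 19 and 4 were also lowest on eNOS-deficient 15, with 0 past the test. The surfactant gene Sftpc stood at 9.92 on eNOS-deficient 19, against 4.75 on eNOS-deficient 15, while Scgb1a1, which marks airway secretory cells, was at 3.49 and 3.34 on those arrays. Scgb1a1 was highest in wild type, at 8.99, 5.24 and 4.37 on wild type 2, 3 and 5. Skeletal muscle genes were highest on eNOS-deficient 11 (list mean 11.71, against 10.34 on eNOS-deficient 15 and 10.33 on eNOS-deficient 19), and 7 lymphocyte genes were lowest there (5.94, against 8.58 on eNOS-deficient 15 and 8.84 on eNOS-deficient 19). Cardiac muscle genes averaged 7.74, 6.37 and 6.80 on eNOS-deficient 11, 15 and 19, against 7.02, 6.78 and 7.45 on wild type 2, 3 and 5. Of the 7 cardiac genes, 5 were lowest on eNOS-deficient 15, against 10.4% of all genes, and 0 were highest on eNOS-deficient 19. Squamous epithelium genes stood at 8.56 on wild type 5, where wild type 2 had 6.42 and wild type 3 had 5.76, and with their mean as a covariate the difference of Th was 0.68 and that of Chga 0.53, neither past. Y-linked genes averaged 7.76, 4.71 and 8.002 on eNOS-deficient 11, 15 and 19, against 3.63, 3.54 and 3.47 on wild type 2, 3 and 5. Among them, Eif2s3y read 8.08, 4.70 and 8.51 in eNOS-deficient samples, against 3.26, 2.86 and 3.44 in wild type. Y-linked signal was thus unequal between the groups and between eNOS-deficient 15 and 19. The labels do not state sex, and its part in the values above was not tested.

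As checks of the tissue, 8 smooth muscle genes averaged 9.94, 9.75 and 10.05 log2 on eNOS-deficient 11, 15 and 19, against 9.74, 9.56 and 9.48 on wild type 2, 3 and 5, with Acta2, smooth muscle actin, at 12.55, 12.59 and 12.80 in eNOS-deficient samples, against 12.39, 12.30 and 12.41 in wild type. Of the 8, 4 (Acta2 among them) were higher in eNOS-deficient samples without overlap and 0 lower, against 19.5% of all genes in either direction. At an unadjusted limma p under 0.05 there were 3 of 8, against 11.6% of all genes. Myh11 differed by -0.27 and Tagln by 0.44. Endothelial genes had 0 of 8 past (median -0.22, with Cdh5 at -0.23, Pecam1 at -0.26 and Vwf at 0.03). Brown fat genes had 0 of 6 past (median 0.21), and Ucp1, the uncoupling protein that sympathetic nerves induce in brown fat, lay at 13.02 to 13.12 in eNOS-deficient samples, with wild-type samples at 12.91 to 13.04. Ucp1 did not follow the order of the neuron genes. Of the 6 brown fat genes, 3 were higher in eNOS-deficient samples without overlap and 0 lower, against 19.5% of all genes in either direction. At an unadjusted limma p under 0.05 there were 2 of 6, against 11.6% of all genes. Cidea differed by -0.03 and Dio2 by 0.67 (limma adjusted p = 0.234). The lists for white fat (5 genes, median 0.16), cardiac muscle (7, -0.13), smooth muscle (8, 0.36), squamous epithelium (15, -1.12), skeletal muscle (10, 0.53), lymphocytes (7, -0.39) and the Y chromosome (3, 3.42) also had 0 genes past. Nos3 itself averaged 7.26 ± 0.13 in eNOS-deficient samples against 7.74 ± 0.34 in wild-type samples (SD, n = 3 each), a difference of -0.48 (limma adjusted p = 0.399), with wild type 5 inside the eNOS-deficient range. No source used here says where its probes lie relative to the deleted part, so that value does not check the labels. Array medians lay between 5.55 and 5.59 in eNOS-deficient and between 5.61 and 5.68 in wild-type samples. Precision rests on 3 arrays a group: the median standard error was 0.43 log2 for the 8 genes, against 0.16 over all genes.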

How the data were processed

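The series table deposited by the authors holds log2 signals of 41345 probe sets for 6 arrays, which per the labels' protocols started from 300 ng of total RNA each. Per the submitters' processing notes the authors used RMA in Affymetrix Expression Console 1.3.1, which corrects background, equalises the distributions of the arrays and summarises probes. The values were used as deposited, and no genome build is named.

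Probe sets were named from the platform annotation: 23521 had 1 symbol, 1814 several and 16010 none. Gene IDs of 23328 were found in RefSeq (GRCm38.p6) and 0 symbols changed. The brightest probe set per gene was kept (1082 genes had several), and 18007 of 22180 genes lay at or above 4.38 log2, the 25th percentile over probe sets. limma 3.58.1 in R 4.3.3 (lmFit, eBayes, two-sided, no covariate) compared genotypes, with Benjamini-Hochberg adjustment at 0.05. An exact permutation test of 3 against 3 arrays cannot go below 0.1. The script was tested on simulated data.

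The members and the 19 other gene lists were chosen with earlier results of these data known, and a lung list was added after the values were seen. Genes named were all members, the 3 nearest profiles and, for the lists, genes past the test or else genes from the first 3 measured. For some lists only part of these 3 or none is named in the text. Any other gene is marked as named after its values were seen, which also holds for Vip, Nos1, Cnn1 and the lung genes. Alternatives were other dim filters, the mean of probe sets, median centring, repeated quantile normalization, an intensity trend with robust variance, array weights, epithelium genes as a covariate, and arrays left out. Plots used matplotlib 3.10.9 in Python 3.11.15.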

Additional observations from a re-analysis of the deposited data

How the results depend on the processing

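No member passed under any of 15 alternatives or at an unadjusted p under 0.05. Over all genes, 5 passed, and 3 did without the dim filter, 2 with the mean of probe sets, 2 (2 higher, 0 lower, against 2 and 3) after repeated quantile normalization, 119 with array weights, 2 with the epithelium covariate, 2 without eNOS-deficient 11 and wild type 5 together, 0 to 6 with single arrays left out and 2084 at an unadjusted p. Of listed genes, 0 passed, and 1 did with array weights (Cnn1), and 0 to 3 with single arrays left out (3 Y-linked genes without eNOS-deficient 15). Of the 8 members, 7 changed sign in at least 1 alternative without being called, all but Chga. With array weights they were -0.32 for Th, -0.40 for Dbh, -0.0569 for Uchl1 and -0.46 for Prph. With the epithelium covariate Slc6a2 was 0.12 and Prph -0.0489, without eNOS-deficient 11 and wild type 5 they were 0.0715 and -0.0868, and Slc6a2 was 0.0581 with median centring. With single arrays left out the differences ranged from -0.59 to 0.84 for Th, -0.67 to 0.78 for Dbh, -0.24 to 0.65 for Npy, -0.52 to 0.49 for Slc6a2, -0.0727 to 0.88 for Uchl1, -0.40 to 0.48 for Prph, -0.18 to 0.60 for Stmn2 and 0.35 to 1.05 for Chga. The cause was not tested. No paired analysis was possible because the genotypes share no replicate numbers.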

Other observations

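Nos1, the neuronal nitric oxide synthase, which some autonomic neurons and skeletal muscle fibres express, did not follow the sympathetic genes. It had 7.69, 6.42 and 6.45 log2 on eNOS-deficient 11, 15 and 19, against 6.02, 5.75 and 7.42 on wild type 2, 3 and 5 (difference 0.46, limma adjusted p = 0.771). Its 2 highest arrays, eNOS-deficient 11 and wild type 5, were also the 2 highest for skeletal muscle genes, whose list mean was 11.71 and 11.21 there. Vip, a peptide of cholinergic and enteric neurons, had 5.80, 4.58 and 4.72 on eNOS-deficient 11, 15 and 19, against 6.31, 5.84 and 4.91 on wild type 2, 3 and 5 (difference -0.66, limma adjusted p = 0.600).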
